A study of Zea mays with 50 samples.

Results

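The 10 transcripts described here were listed as rows of the TIFY gene family of maize and were taken by their gene IDs from a table of 30213 rows, over all 50 libraries of the study. The reference annotation names 1 of them, GRMZM2G145407, as a jasmonate ZIM-domain gene (JAZ9, also TIFY13). Of the others, 8 carry TIFY names: GRMZM2G005954 is TIFY15 (also pnFL-2), GRMZM2G343157 is TIFY1 (also ZIM26), GRMZM2G145412 is TIFY9 (also ZIM18), GRMZM2G145458 is TIFY10, GRMZM2G126507 is TIFY24, GRMZM2G116614 is TIFY25 (also ZIM28), GRMZM2G117513 is TIFY6 (also TIFY7) and GRMZM2G143402 is TIFY30 (also ZIM34). GRMZM2G114681 has no name in that annotation and is given by its ID. The term jasmonate ZIM-domain therefore rests on 1 alias. The set is called TIFY rows below, although the annotation does not show that GRMZM2G114681 belongs to the family.

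TIFY proteins share a short conserved motif, and the family holds the JAZ repressors together with other groups that are not JAZ proteins. In Arabidopsis, where the pathway is best known, JAZ proteins bind MYC-type transcription factors and recruit co-repressors through the adaptor NINJA, which keeps jasmonate-responsive genes off. The hormone jasmonoyl-isoleucine brings JAZ proteins to the receptor COI1 for degradation, and many JAZ genes are themselves induced by the hormone and by wounding, so that their transcripts are a common readout of the pathway. In maize, jasmonate made through the lipoxygenase ts1 is required for male identity of the tassel flowers.

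The cells were leaf protoplasts (cells freed of their walls) of the inbred line B73, isolated 4 times (preps 1 to 4) from more than 10 etiolated seedlings per isolation, aged 10 to 12 days and kept in the dark. Each culture expressed 1 of 23 candidate regulators of reproductive phasiRNAs (phased small RNAs of anthers) as a GFP fusion, or GFP alone as the control, always from the 35S promoter. The fusion partner sat at the N-terminus of every regulator other than ZFL2, which had it at the C-terminus. Preps 1 and 3 received bHLH103, CSD4, DOF25, HSF2, NAC29, NAC119, OCL4, TCP23, ZFL2, ZHD5, ZIM13 and GFP. Preps 2 and 4 received ABI5, bHLH97, DOF7, EREB50, EREB69, GBP15, MYB131, NAC25, OFP9, WRKY81, ZFL1, ZHD4 and GFP. Each regulator thus had 2 libraries from separate isolations and was set against the 2 GFP libraries of the same isolations. Every culture, controls included, received a 35S construct. The labels name no jasmonate treatment and do not give the share of cells that took up the construct.

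The deposited unit is RPKM, which scales reads by row length and library size. Whole reads recovered from these values gave a depth of 6830505 to 11875644 reads in 48 libraries, and of 28153231 and 29950351 reads in the EREB69 libraries. Of the mesophyll markers, the pyruvate phosphate dikinase gene pdk1 had a median of 152 RPKM over all libraries and the malate dehydrogenase gene mdh6 22.7 RPKM, while pep1, the C4 phosphoenolpyruvate carboxylase gene, had only 0.373 RPKM. Some markers of other leaf cells were present too, with medians of 9.10 RPKM for the bundle sheath gene me3 and 15.8 RPKM for the epidermal gene ocl1. The other epidermal rows were split, with medians of 0.222 RPKM for gl1 and of 0.804 and 26.5 RPKM for the fdh1 rows. The bundle sheath row rca1 had a median of 1.74 RPKM, below me3 and the rbcS rows. In these bulk libraries, fewer cells that express a gene and less of its RNA per cell cannot be told apart.

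All 10 TIFY rows were detected in every library, and their median levels ran from 78.9 RPKM down to 0.992 RPKM. All of them passed the filter for testing, which was at least 1 RPKM in at least 2 libraries and was met by 28122 rows. TIFY6 had the highest level per length, with a lowest value of 56.4, a median of 78.9 and a highest value of 97.9 RPKM over 50 libraries. TIFY30 had 47.3, 60.2 and 75.9 RPKM on the same scale. These rows ranked 1 to 3 among the 10 in each of the 48 libraries without ZIM13, and their highest value was 1.74 and 1.6 times the lowest. The SD of log2(RPKM + 0.5) was 0.18 for TIFY6 and 0.14 for TIFY30, below that of most tested rows (percentiles 19.7 and 8.17).

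TIFY9 stood at a similar height but varied far more, with 15.4, 49.1 and 118 RPKM as lowest, median and highest value, a 7.71-fold range. Its SD of log2 values was at percentile 95.3 of all tested rows. TIFY24 had a median of 35.2 RPKM (22.2 to 47.6) and GRMZM2G114681 a median of 28.7 RPKM (20.5 to 40.4), and both kept ranks 3 to 5 in the same 48 libraries. Without the ZIM13 libraries, TIFY15 had a median of 15.1 RPKM (8.11 to 25.5) and kept rank 6 or 7.

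The low rows were TIFY1, TIFY10, TIFY25 and JAZ9. TIFY1 had a median of 8.61 RPKM (3.39 to 23.4), TIFY10 of 5.33 RPKM (1.45 to 12.4) and TIFY25 of 4.01 RPKM (2.03 to 9.12). JAZ9, the row that carries the JAZ name, had the lowest median, 0.992 RPKM, and ranged from 0.121 to 8.63 RPKM, which is the widest range as a fold (71.6) when the ZIM13 libraries are left out for TIFY15. Its values rest on few reads, with a median of 7.5 and a minimum of 1 read per library, against a minimum of 30 reads for TIFY1 and 514 reads for TIFY6. Reads carried no molecular identifiers, so read numbers describe counting depth only.

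**Figure D1:**
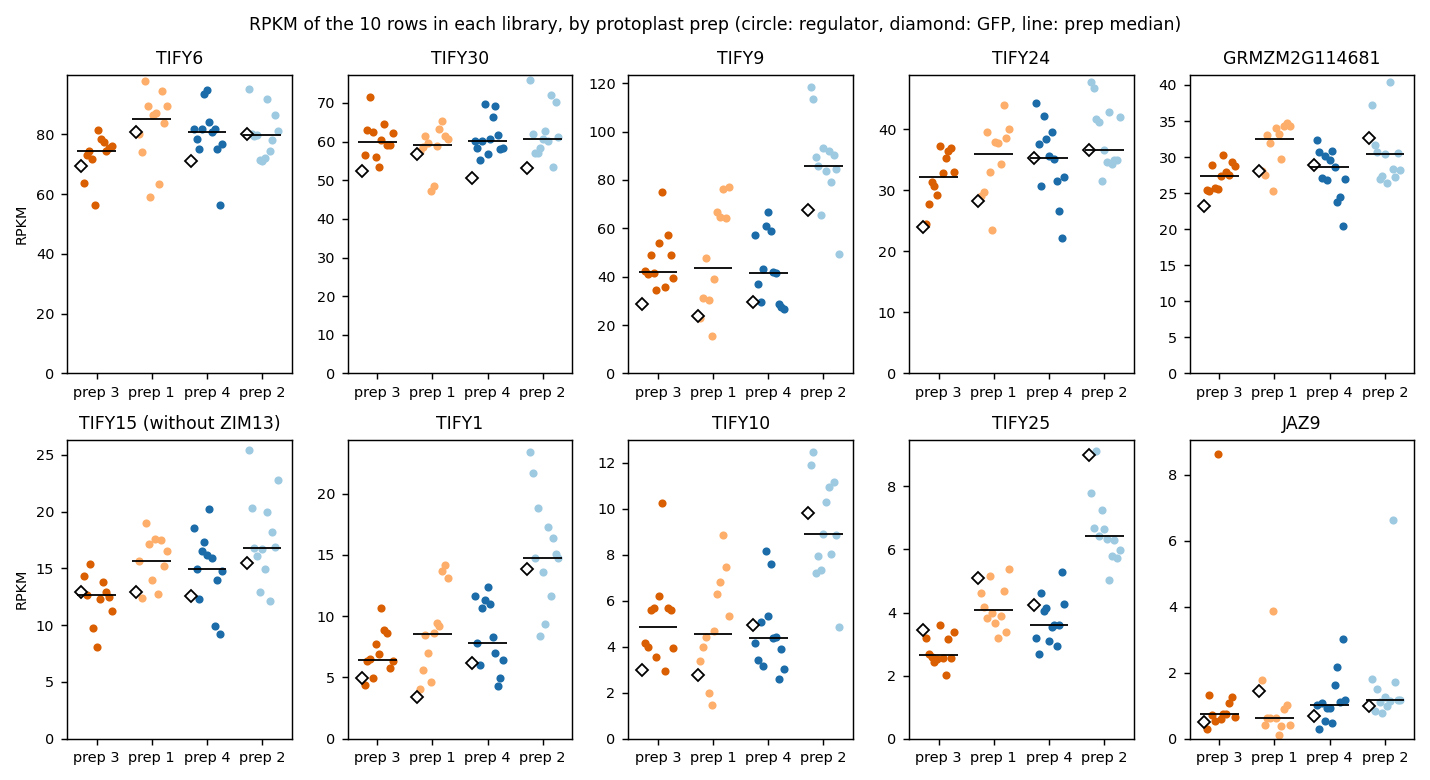
RPKM of each of the 10 TIFY rows (y axis, from 0) in every library, grouped by protoplast prep (x axis). Circles are regulator libraries, diamonds the GFP library of the prep and lines the prep median; the 2 ZIM13 libraries are left out for TIFY15. TIFY6 and TIFY30 are nearly level over the preps, whereas TIFY9 has a median of 41.4 RPKM in prep 4 and 85.7 RPKM in prep 2.

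The first comparison asked whether any regulator changed the TIFY rows relative to GFP. Of 230 tests (10 rows in 23 regulators), 3 were called by limma with a Benjamini-Hochberg adjusted p below 0.05 and a log2 change of 1 or more in size, all of them higher. Over all tested rows and regulators, 0.197% of tests were called higher and 0.0111% lower. The called tests were TIFY15 in ZIM13 cells and JAZ9 in NAC29 and in MYB131 cells. If TIFY15 is the gene expressed in ZIM13 cells, its rise follows from the construct. Without that test, 229 tests remain. None of the TIFY rows was called lower by limma or by limma-voom on the recovered reads, and 1 of the 230 tests was lower at an unadjusted p below 0.05.

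TIFY15 reached 1566 RPKM in prep 1 and 1883 RPKM in prep 3 in ZIM13 cells, against 12.9 RPKM in each of the GFP libraries of these preps. It was the 1 row of 28122 called higher in ZIM13 cells (0.00356% of rows), with no row called lower. The mean was 1725 ± 224.2 RPKM in ZIM13 cells and 12.9 ± 0.0366 RPKM in GFP cells (SD, n = 2 each). The log2 rise was 7.00 ± 0.29 (SE), with a limma adjusted p of 3.68e-16, and lay between 6.87 and 7.13 with any 1 of these libraries left out. The reference does not give the name ZIM13 to this row, so the labels alone do not say that it is the expressed gene. In the other 48 libraries no group mean of TIFY15 was called different from GFP, and the highest was 22.0 RPKM in bHLH97 cells, against 14.0 RPKM in GFP cells (log2 0.62 ± 0.29, limma adjusted p 0.573).

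None of the other 9 rows passed the test in ZIM13 cells, where 7 had positive and 2 (JAZ9 and TIFY25) negative values. TIFY9 stood at 66.7 and 74.8 RPKM in ZIM13 cells of preps 1 and 3, against 23.7 and 28.8 RPKM in GFP cells. The groups did not overlap, but the fitted log2 difference of 1.42 ± 0.62 had a limma adjusted p of 0.586. TIFY10 had 1.33 ± 0.61 (adjusted p 0.595) and TIFY1 1.19 ± 0.58 (adjusted p 0.597) in the same limma fit. Set against the other regulators of preps 1 and 3 in place of GFP, these differences were 0.72 for TIFY9, 0.78 for TIFY10 and 0.44 for TIFY1. JAZ9 was lowest in ZIM13 cells, at 0.121 RPKM (1 read) and 0.744 RPKM (6 reads), against 1.44 RPKM (9 reads) and 0.501 RPKM (4 reads) in GFP cells, and the groups overlapped.

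JAZ9 rose in NAC29 cells. It had 3.86 RPKM (29 reads) in prep 1 and 8.63 RPKM (74 reads) in prep 3 in NAC29 cells, against 1.44 RPKM (9 reads) and 0.501 RPKM (4 reads) in GFP cells. Both NAC29 libraries lay above both GFP libraries, and they held the highest JAZ9 value of their prep. The means were 6.25 ± 3.37 RPKM in NAC29 cells and 0.971 ± 0.665 RPKM in GFP cells (SD, n = 2 each). The log2 rise of 2.18 ± 0.48 (SE) had a limma adjusted p of 0.0155, in a comparison where 0.868% of all rows were called higher. Without GFP replicate 3 the rise was 1.70 and without NAC29 replicate 3 it was 1.65, and in neither case was it called (limma adjusted p 0.251 and 0.297).

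The remaining TIFY rows of NAC29 cells were not called. In prep 1, NAC29 had the lowest regulator value of TIFY9 (15.4 RPKM), TIFY10 (1.45 RPKM), TIFY24 (23.5 RPKM), TIFY6 (58.9 RPKM), TIFY30 (47.3 RPKM) and GRMZM2G114681 (25.3 RPKM). In prep 3 it was lowest for TIFY9, at 34.4 RPKM, TIFY6, at 56.4 RPKM, and TIFY15, at 8.11 RPKM, but not for TIFY10, TIFY24, TIFY30 or GRMZM2G114681. Its TIFY9 value in prep 3 lay above the 28.8 RPKM of the GFP library. How many of all rows were also lowest in these libraries was not counted. Several of these TIFY rows varied together from library to library, so they are not separate observations. TIFY6 averaged 57.6 RPKM in NAC29 cells and 75.1 RPKM in GFP cells (log2 −0.38 ± 0.18, limma adjusted p 0.377), the 1 test in which a TIFY row was lower at an unadjusted p below 0.05.

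JAZ9 also rose in MYB131 cells. It had 6.64 RPKM (61 reads) in prep 2 and 2.18 RPKM (15 reads) in prep 4 in MYB131 cells, against 0.987 RPKM (7 reads) and 0.687 RPKM (5 reads) in GFP cells. The groups did not overlap, although the MYB131 libraries differed from each other by more than 3 times. MYB131 held the highest JAZ9 value of prep 2, but in prep 4 ZFL1 was higher, at 3.02 RPKM. The means were 4.41 ± 3.16 RPKM in MYB131 cells and 0.837 ± 0.212 RPKM in GFP cells (SD, n = 2 each). The log2 rise of 1.72 ± 0.48 (SE) had a limma adjusted p of 0.0395, with 2.21% of all rows called higher in that comparison. The call was lost without GFP replicate 2 (1.88), MYB131 replicate 2 (1.01) or GFP replicate 4 (1.56) and was kept without MYB131 replicate 4 (2.43). With limma-voom on the recovered reads the value was 2.21 and the adjusted p 0.0697.

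Across all 25 groups, NAC29 and MYB131 had the highest JAZ9 means. ZFL1 was next, at 2.09 ± 1.32 RPKM (1.16 and 3.02 RPKM), followed by NAC25 at 1.41 ± 0.424 RPKM and bHLH97 at 1.41 ± 0.557 RPKM. GFP cells stood at rank 13 (preps 1 and 3) and rank 16 (preps 2 and 4), and the lowest mean was 0.432 ± 0.441 RPKM in ZIM13 cells. Both NAC29 libraries (3.86 and 8.63 RPKM) lay above both ZFL1 libraries, although these groups came from different preps. The range of the MYB131 libraries (2.18 to 6.64 RPKM) overlapped that of ZFL1. Fold changes of JAZ9 are on the log2(RPKM + 0.5) scale, which understates changes at such levels.

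**Figure D2:**
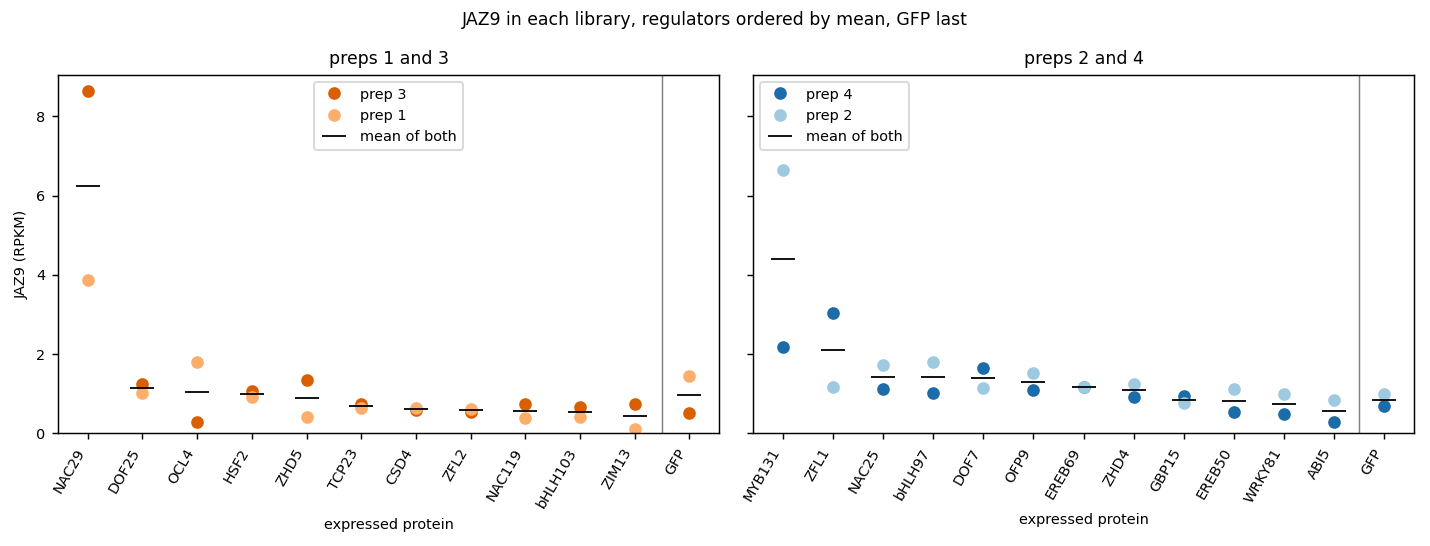
JAZ9 in RPKM (y axis, from 0) in each library of preps 1 and 3 and of preps 2 and 4, with regulators ordered by their mean (x axis) and GFP at the right end. Points are single libraries and dashes the mean of both. NAC29 (3.86 and 8.63 RPKM) and MYB131 (6.64 and 2.18 RPKM) lie above GFP in both preps, and most other groups lie near or below 2 RPKM.

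Most tests of the TIFY rows gave differences that were small against their error. At an unadjusted p below 0.05, 24 of the 230 tests were higher (10.4%, against 3.95% over all rows) and 1 was lower (0.435%, against 3.64% over all rows). TIFY30 supplied 8 of the higher tests and TIFY24 supplied 7, and TIFY15 in ZIM13 cells was among the others. The tests of a row share its GFP libraries, so these counts do not stand for separate observations. The median log2 difference of the 10 rows ran from −0.13 in ZFL1 to 0.37 in ZIM13, while the median of all rows lay between −0.02 and 0.01 in the 23 comparisons.

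TIFY30 varied least of the 10 rows, and its GFP libraries were among its lowest. The 11 regulator libraries of prep 3 had 53.4 to 71.5 RPKM, against 52.3 RPKM in the GFP library, and those of prep 1 had 47.3 to 65.4 RPKM, against 56.8 RPKM. The 12 regulator libraries of prep 4 had 55.3 to 69.8 RPKM, against 50.6 RPKM in the GFP library, and those of prep 2 had 53.5 to 75.9 RPKM, against 53.2 RPKM. The GFP library was below every regulator library in preps 3, 4 and 2 but not in prep 1, where NAC29 and CSD4 were lower. Each range is set against a single control library. A GFP library below every regulator library was seen for 8.46% of all rows in prep 4 and 7.54% in prep 2. The share was larger in prep 3. Over the 4 preps, 44 of 46 regulator libraries of TIFY30 lay above the GFP library of their prep. As many or more lay above GFP for 0.302% of all rows. In MYB131 cells TIFY30 had 72.0 and 69.3 RPKM, against 53.2 and 50.6 RPKM in GFP cells. The log2 difference of 0.44 ± 0.11 had a limma adjusted p of 0.0168 but stayed under the size of 1 set for a call. In the remaining regulators the limma adjusted p of TIFY30 was between 0.468 and 1 where the unadjusted p was below 0.05.

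TIFY1, TIFY9 and TIFY24 had some of their largest positive values in HSF2 cells, none of them called. In HSF2 cells TIFY9 differed by 1.32 ± 0.62 (limma adjusted p 0.428), TIFY1 by 1.30 ± 0.58 (0.412) and TIFY24 by 0.61 ± 0.18 (0.255). TIFY25 lay mostly below its controls, with 7 of 46 regulator libraries above the GFP library of their prep. As few or fewer lay above GFP for 5.86% of all tested rows. TIFY25 had 5.02 to 9.12 RPKM in the regulator libraries of prep 2, against 8.98 RPKM in the GFP library. In those of prep 3 it had 2.03 to 3.62 RPKM, against 3.45 RPKM. Its fitted differences ran from −0.53 in MYB131 to 0.07 in OFP9, and none reached an unadjusted p below 0.05. With 2 libraries per group and SEs of about 0.6 on the log2 scale, differences of this size could not be called for TIFY1, TIFY9 and TIFY10.

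**Figure D3:**
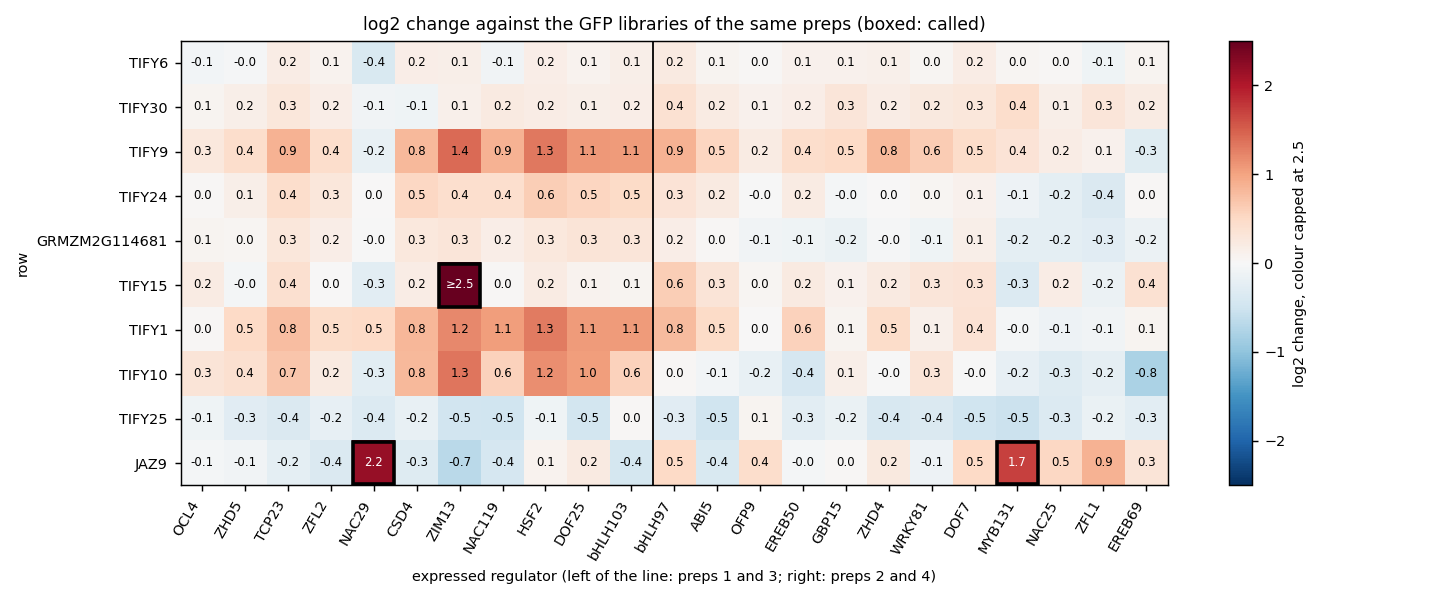
Fitted log2 change of each TIFY row (vertical) in each regulator against the GFP libraries of its own preps (horizontal), with the colour capped at 2.5 and the called tests boxed. The 3 boxes are TIFY15 in ZIM13 (7.00), JAZ9 in NAC29 (2.18) and JAZ9 in MYB131 (1.72), and values above 0 outnumber those below 0 in the 9 rows other than TIFY25.

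Further rows picked by name from the TIFY family, oxylipin synthesis and jasmonate signalling were not called by limma in any regulator. The names alone do not show that each of them acts in the jasmonate pathway. These were 36 rows, of which 33 were tested: 12 further TIFY rows, 19 of 22 rows of oxylipin synthesis, the MYC-type factor MYC2a and the co-repressor rel2. The lipoxygenase rows lox1, lox7 and lox12 were too low. Among the 759 limma tests, 32 were higher (4.22%, against 3.95% over all rows) and 7 lower (0.922%, against 3.64% over all rows) at an unadjusted p below 0.05. Limma-voom called 1 of these tests, higher, and 1207 of the 646806 tests over all rows. That row was the lipoxygenase gene lox5 in NAC29 cells, at 11.5 RPKM against 5.88 RPKM in GFP cells. Its limma log2 difference of 0.93 ± 0.21 (adjusted p 0.0172) fell just under the size set for a call, and limma-voom gave 1.00 (adjusted p 0.00836).

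When each regulator was set against the other regulators of its preps, JAZ9 in NAC29 had a log2 rise of 2.41 ± 0.36 (limma adjusted p 6.17e-05) and in MYB131 of 1.46 ± 0.36 (adjusted p 0.0092). In that setting 0.219% of tests over all rows were called higher and 0.025% lower. TIFY15 in NAC29 cells was then called lower as well, at −1.08 ± 0.21, but this average contains the ZIM13 libraries. Without them the value was −0.39 ± 0.22, with a limma adjusted p of 0.391.

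The second comparison was between isolations of the same constructs. TIFY9, TIFY10, TIFY1 and TIFY25 were lower in prep 4 than in prep 2. TIFY9 had a lowest, median and highest value of 26.8, 41.4 and 66.9 RPKM over the 13 constructs of prep 4, and of 49.3, 85.7 and 118 RPKM in prep 2. It was lower in prep 4 for 13 of 13 constructs, a log2 fall of −1.05 ± 0.12 (SE) with a limma adjusted p of 1.56e-05. It was the 1 TIFY row called at a size of at least 1, where 0.672% of all rows were called lower and 0.103% higher.

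At an adjusted p below 0.05 and any size, 4 of the 10 TIFY rows were lower in prep 4 and 0 higher by limma, against 17.9% of all rows lower and 15.5% higher. At an unadjusted p below 0.05, 7 were lower and 0 higher, against 22.9% of all rows lower and 20.4% higher. TIFY10 had a median of 4.38 RPKM (2.59 to 8.15) in prep 4 and of 8.92 RPKM (4.84 to 12.4) in prep 2, a log2 difference of −0.95 ± 0.14 seen in 12 of 13 constructs (limma adjusted p 0.000158). TIFY1 had 7.84 RPKM (4.27 to 12.4) in prep 4 and 14.8 RPKM (8.36 to 23.4) in prep 2, −0.86 ± 0.16 and lower in 11 of 13 (adjusted p 0.001). TIFY25 had 3.61 RPKM (2.68 to 5.29) in prep 4 and 6.42 RPKM (5.02 to 9.12) in prep 2, −0.76 ± 0.09 and lower in 13 of 13 (adjusted p 1.44e-05). TIFY6 and TIFY30, the rows with the highest levels, had differences of −0.02 ± 0.07 and −0.03 ± 0.05.

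Prep 3 differed less from prep 1. No TIFY row was called by limma at a size of at least 1, where 0.0818% of all rows were called higher and 0.0569% lower, and 5 were lower and 0 higher at an unadjusted p below 0.05, against 14.5% of all rows lower and 13.5% higher. At any size, 2 were lower, against 6.46% of all rows lower and 6.19% higher. TIFY25 had a median of 2.65 RPKM (2.03 to 3.62) in prep 3 and of 4.07 RPKM (3.2 to 5.38) in prep 1, lower in 12 of 12 constructs (log2 −0.50 ± 0.08, limma adjusted p 0.00139). GRMZM2G114681 had 27.4 RPKM (23.2 to 30.3) in prep 3 and 32.5 RPKM (25.3 to 34.7) in prep 1, lower in 11 of 12 (−0.19 ± 0.04, adjusted p 0.00394). TIFY9, which separated preps 4 and 2, had 42.1 RPKM in prep 3 and 43.6 RPKM in prep 1 as medians (0.10 ± 0.17, adjusted p 0.75).

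The median difference of the 10 rows was −0.15 between preps 3 and 1 and −0.27 between preps 4 and 2, while the medians of all rows were −0.00559 and −0.00452. Each prep is a single isolation, so these tests compare the isolations at hand and not a property of later or earlier ones. Summed marker levels differed for some lists, although the ranges overlapped for every list. In preps 4 and 2, median sums were 26.5 and 58.0 RPKM for bundle sheath and 15.3 and 29.7 RPKM for antenna rows. They were 217 and 231 RPKM for mesophyll and 43.6 and 40.2 RPKM for epidermal rows. Some sums rested mostly on 1 row, such as pdk1 or the antenna gene lhcb7. The 4 bundle sheath rows (me3, rca1 and 2 rbcS rows, none at 0) summed to 19.6 to 34.3 RPKM in prep 4 and 32.5 to 96.8 RPKM in prep 2. They summed to 18.3 to 29.6 RPKM in prep 3 and 22.5 to 49.6 RPKM in prep 1. The 3 mesophyll rows (pdk1, mdh6 and pep1) summed to 141 to 354 RPKM in prep 4 and 195 to 539 RPKM in prep 2. In prep 3 they summed to 104 to 190 RPKM, against 87.2 to 163 RPKM in prep 1. The 4 epidermal rows summed to 40.5 to 48.8 RPKM in prep 4 and 36.8 to 44.3 RPKM in prep 2. In prep 3 they summed to 39.7 to 46.8 RPKM, against 41.1 to 55.5 RPKM in prep 1. The 4 light-harvesting antenna rows (lhcb genes) summed to 10.7 to 18.5 RPKM in prep 4 and 13.7 to 50.2 RPKM in prep 2. In prep 3 they summed to 14.7 to 19.4 RPKM, against 14.1 to 27.7 RPKM in prep 1. The part of cell composition in the differences of the TIFY rows was not tested.

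The other TIFY rows differed between preps 4 and 2 in the same direction. Of 12, 9 were lower in prep 4 at an adjusted p below 0.05 and 0 higher by limma, against the 17.9% and 15.5% of all rows given above, led by TIFY28 (median 102 RPKM in prep 4 and 215 RPKM in prep 2, −1.04 ± 0.18), TIFY29 (−0.84 ± 0.13) and TIFY20 (−0.77 ± 0.13). The 19 oxylipin synthesis rows were divided, with 7 lower and 4 higher in prep 4 at the same threshold. The lower rows included the lipoxygenase lox4 (−0.66 ± 0.07), the jasmonate-forming lipoxygenase ts1 (−0.52 ± 0.09) and the allene oxide synthase aos1 (−0.34 ± 0.09), which acts on lipoxygenase products. The oxo-phytodienoic acid reductases opr7 (−0.37 ± 0.08) and opr8 (−0.28 ± 0.09), required for jasmonate synthesis in maize, were lower too. The higher rows were other members of the reductase family, opr5 (0.91 ± 0.12), opr3 (0.90 ± 0.16), opr2 (0.53 ± 0.15) and opr1 (0.43 ± 0.13). At a limma adjusted p below 0.05, 3 of the 12 other TIFY rows were lower in prep 3 than in prep 1. They were TIFY27, TIFY16 and TIFY2, and none was higher. TIFY29 had a positive difference that did not pass (0.33 ± 0.14, limma adjusted p 0.128). Of the 19 oxylipin rows, 4 were higher (opr2, lox11, lox6 and opr1) and 0 lower, against 6.19% of all rows higher and 6.46% lower. The co-repressor rel2 was higher in prep 3 than in prep 1 (0.30 ± 0.04) and in prep 4 than in prep 2 (0.12 ± 0.03).

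The third comparison followed the constructs in the order in which the table lists them within a prep, with GFP at place 1. The EREB69 columns stand after all other columns, apart from their preps, and were taken as the last place of preps 2 and 4. In preps 1 and 3, TIFY1, TIFY9 and TIFY24 were higher at later places. TIFY1 in prep 1 had 3.39 RPKM in GFP cells and 4.05, 5.6, 8.47, 6.97, 4.61, 8.61, 9.45, 9.22, 13.7, 14.2 and 13.2 RPKM at places 2 to 12. In prep 3 it had 4.96 RPKM in GFP cells and 4.40, 6.36, 6.49, 4.93, 7.74, 6.90, 10.7, 8.91, 8.60, 5.80 and 6.36 RPKM in the same order. In prep 1 the highest values lay at places 10 to 12, after a dip at places 5 and 6, whereas in prep 3 the highest lay at place 8, in ZIM13 cells.

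Fitted to the mean of both preps, TIFY1 rose by 0.107 ± 0.0165 log2 units per place (limma adjusted p 0.00457), a fitted rise of 1.18 from place 1 to place 12. TIFY9 rose by 0.102 ± 0.0267 per place (adjusted p 0.034, fitted rise 1.12) and TIFY24 by 0.0483 ± 0.0111 (adjusted p 0.0201, fitted rise 0.53). These were 3 of the 10 TIFY rows and none fell, against 4.22% of all rows that rose and 3.92% that fell. TIFY10 had a slope of 0.0769 ± 0.0299 and an adjusted p of 0.132.

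Each prep was also fitted on its own. In prep 1 alone TIFY1 (0.162, limma adjusted p 0.000649) and TIFY9 (0.166, adjusted p 0.00836) were called, where 9.33% of all rows rose and 9.72% fell. In prep 3 alone no TIFY row was called by limma and 0% of all rows, with 2 TIFY rows (3.41% of all rows) rising at an unadjusted p below 0.05, and the slopes were 0.0521 for TIFY1 and 0.0385 for TIFY9. TIFY24 had nearly the same slope in each, 0.0504 in prep 3 and 0.0462 in prep 1. The change of slope, prep 3 minus prep 1, did not pass for TIFY1 (−0.110, limma adjusted p 0.0877) or TIFY9 (−0.127, adjusted p 0.0697), where 2.21% of all rows had a called positive and 1.91% a called negative change. Without the GFP libraries, TIFY1 kept its call (0.0992, adjusted p 0.0362), while TIFY9 (0.0946, adjusted p 0.129) and TIFY24 (0.0451, adjusted p 0.0905) lost theirs.

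In preps 2 and 4 no TIFY row was called over place by limma, where 0.00356% of all rows rose and 0% fell, and 3 TIFY rows fell at an unadjusted p below 0.05, as did 6.63% of all rows. The slopes were −0.0386 ± 0.0177 for TIFY1, −0.0345 ± 0.0203 for TIFY9 and −0.0310 ± 0.0106 for TIFY24 (limma adjusted p 0.417, 0.513 and 0.319). The slope in preps 1 and 3 minus that in preps 2 and 4 passed for 4 of the 10 rows (TIFY1, TIFY9, TIFY24 and GRMZM2G114681), all positive, against 5.15% of all rows with a positive and 2.61% with a negative difference. The median slope of the 10 rows was 0.0367 in preps 1 and 3 and −0.0193 in preps 2 and 4, with all-row medians of −0.00051 and −0.000408. Of the 12 other TIFY rows, 6 rose over place in preps 1 and 3 and none fell. The rising rows had slopes from 0.0248 for TIFY16 to 0.116 for TIFY28. Of 19 oxylipin rows, ts1 and lox4 rose, and opr2, opr3 and opr5 fell. Over all rows 4.22% rose and 3.92% fell. In prep 3 alone none of these TIFY or oxylipin rows was called. Each place holds 1 construct, so place and construct cannot be told apart, and nothing in the labels says that the order of the columns is the order in which cells were handled.

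**Figure D4:**
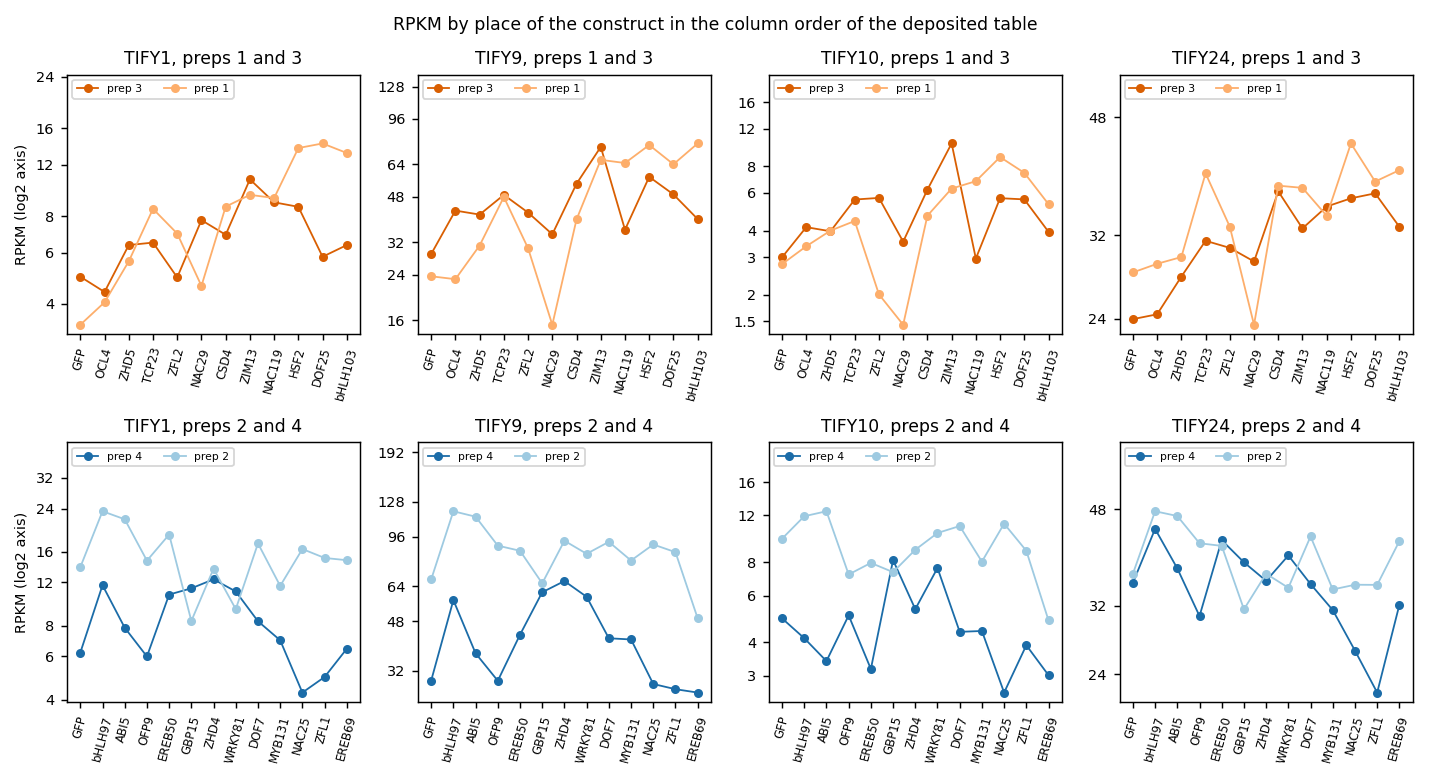
RPKM of TIFY1, TIFY9, TIFY10 and TIFY24 (y axes, logarithmic) by the construct's place in the column order (x axes), with preps 1 and 3 above and preps 2 and 4 below. Points are single libraries joined by prep. In prep 1 the last 3 constructs, at 13.7, 14.2 and 13.2 RPKM, hold the highest TIFY1 values, and prep 2 lies above prep 4 at nearly every construct for TIFY9 and TIFY10.

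Part of the TIFY rows varied together from library to library. Pearson correlations of log2(RPKM + 0.5) were taken over the 48 libraries without ZIM13, with the mean of each prep removed, and are given as a description, since all rows were read from the same libraries and share their isolation and depth. The highest were 0.818 between TIFY9 and TIFY10, 0.813 between TIFY1 and TIFY24, 0.807 between TIFY24 and GRMZM2G114681 and 0.797 between TIFY1 and TIFY9. Of 45 pairs, 17 lay above 0.5 (37.8%, against 1.61% of the pairs of all 28122 tested rows) and the median was 0.31. JAZ9 had negative values with 8 of the 9 other rows, down to −0.461 with TIFY15. TIFY25 had them with 9 of 9, but they were small (−0.043 to −0.24). Some pairs changed sign between preps: TIFY25 with TIFY6 had 0.257 in prep 1 and −0.583 in prep 4. JAZ9 with TIFY1 had −0.54 in prep 1 and 0.46 in prep 3. How many pairs of all rows were negative was not counted.

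TIFY9 and TIFY10 lie next to each other on chromosome 1, with no protein-coding gene between them in the gene order of Zm-B73-REFERENCE-NAM-5.0. Their correlation was 0.900 in prep 1, 0.813 in prep 2, 0.891 in prep 3 and 0.627 in prep 4. TIFY10 had 0.0662 to 0.171 times the RPKM of TIFY9 over the 50 libraries, with a median of 0.105. TIFY1 also has TIFY neighbours on chromosome 1, TIFY2 directly and TIFY4 with 1 gene between. How reads that fit several family members were counted is not given in the sources used here, so the split between such neighbours is uncertain. The correlation of TIFY1 with TIFY9 was 0.918 in prep 1, 0.569 in prep 2, 0.216 in prep 3 and 0.922 in prep 4.

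**Figure D5:**
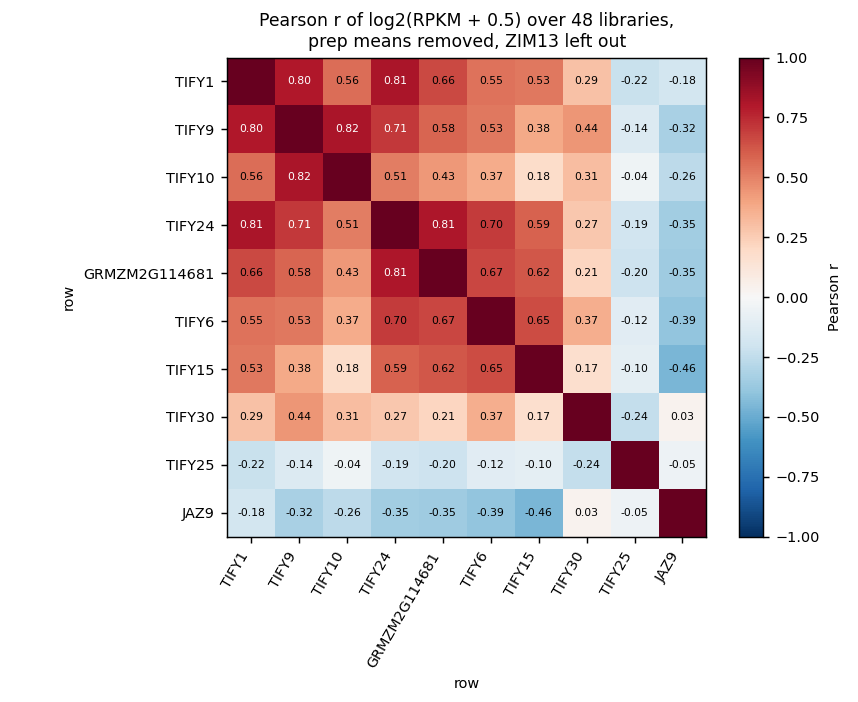
Pearson r between the 10 TIFY rows (both axes) over 48 libraries, from log2(RPKM + 0.5) with prep means removed and ZIM13 left out. TIFY1, TIFY9, TIFY10, TIFY24 and GRMZM2G114681 were placed first and are red at the upper left. TIFY6 and TIFY15 are also red with TIFY24 (0.697 and 0.591), less so with TIFY10 (0.368 and 0.182), so the block has no sharp edge. JAZ9 and TIFY25 are mostly blue, and TIFY25 is pale (−0.043 to −0.24).

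By correlation with the mean z-score of the 10 rows over the same 48 libraries, the most similar of 20834 other rows with a mean of at least 2 RPKM were AC212219.3_FG005 (r = 0.915), GRMZM2G427815 (0.891), GRMZM2G164074 (0.879), GRMZM2G089102 (0.877) and GRMZM5G863420 (0.877). The reference names none of them, and AC212219.3_FG005 ranged from 12.0 to 68.2 RPKM.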

How the data were processed

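Poly(A) RNA libraries from a strand-marking kit were deposited as 1 table of RPKM, the authors' unit, with 1 column per library. Per the submitters' processing notes, HISAT2 2.1.0, featureCounts of Subread 1.6.3, edgeR 3.20.9 and the build B73 RefGen_v3 were used. Reads per row were recovered from the steps between RPKM values for 30213 of 30213 rows (100.0000% of values whole within 0.05 reads) and served only for depth and for limma-voom. Names came from the Zm-B73-REFERENCE-NAM-5.0 alias table, which matched 14594 row IDs (447 to more than 1 gene). Its build differs from that of the files, so no coordinates are printed.

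Comparisons used limma 3.58.1 in R 4.3.3 on log2(RPKM + 0.5), with trended variance, over the 28122 rows that reached 1 RPKM in 2 or more libraries. A single model held 25 groups with 25 residual degrees of freedom. Prep differences had the construct as a block, and slopes over column place used the mean of both preps per construct. Calls needed a Benjamini-Hochberg adjusted p below 0.05 over all rows and, other than for slopes, an absolute log2 change of at least 1. All tests were two-sided. The read recovery was tested on simulated data, as was 1 fit each against GFP, between preps and over place. Other steps were not. Errors are SD over n = 2 libraries or limma SE.

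The 10 rows, the pathway lists and the marker lists were chosen with earlier results of these data known. Named were the 10 rows, each called row of the pathway list, further pathway rows with their levels or changes, and the 5 most similar rows. Pathway rows named for a difference between preps or over place, and lox5, were chosen after their values were seen. The labels use the prep as the replicate number. The difference between preps in 1 group correlated across rows with that in another at a median of 0.131 (−0.21 to 0.497, 66 pairs of groups) for preps 1 and 3 and 0.253 (−0.0468 to 0.474, 78 pairs) for preps 2 and 4.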

Additional observations from a re-analysis of the deposited data

Results flagged for a closer look

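The slope over column place was compared between the 2 pairs of preps in 1 limma fit for each row, and 4 of the 10 TIFY rows differed at a Benjamini-Hochberg adjusted p below 0.05, against 5.15% of all rows with a positive and 2.61% with a negative difference. In log2 units per place, preps 1 and 3 minus preps 2 and 4, the difference was 0.146 ± 0.0254 (SE) for TIFY1 (adjusted p 0.00272), 0.137 ± 0.0351 for TIFY9 (0.0202), 0.0793 ± 0.0159 for TIFY24 (0.00651) and 0.0480 ± 0.0117 for GRMZM2G114681 (0.0159). In each of these rows the slope was positive in preps 1 and 3 and negative in preps 2 and 4. The pairs of preps hold different regulators, so prep pair and construct cannot be told apart.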

How the results depend on the processing

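Against GFP, 3 tests were called in the analysis as reported, 1 with a pseudocount of 0.1 and 1 with adjustment over all 23 comparisons together, TIFY15 in ZIM13 in both. In those 2 settings JAZ9 in NAC29 had adjusted p values of 0.0506 and 0.0546, and JAZ9 in MYB131 of 0.0999 and 0.251. The count was between 2 and 3 with 1 library left out, and 3 with prep as a replicate block, which changed no call. It was 4 with the other regulators as reference and 2 with limma-voom. Over the libraries left out, JAZ9 in NAC29 ranged from 1.65 to 2.71 and JAZ9 in MYB131 from 1.01 to 2.43. Between preps 3 and 1 the count of 0 became 2 at any size of change, and between preps 4 and 2 the count of 1 became 2 with a pseudocount of 0.1 and 4 at any size. For slopes in preps 1 and 3 the count of 3 became 1 without the GFP libraries and 0 in prep 3 alone. The any-size settings, the slopes without bHLH103 and the calls against GFP without EREB69 were chosen after seeing the data. No value changed sign. Depth limits JAZ9 most, with 1 to 74 reads per library.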
